A study of Mus musculus with 3 samples.

Results

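Rgs5-led cells are the stromal cells of dissociated mouse islets in which Rgs5, a GTPase activator of G proteins typical of pericytes, outnumbered the fibroblast transcripts Pdgfra, Dcn and Lum. A barcode counted as a cell with at least 500 genes and at most 20% mitochondrial UMIs (unique molecular identifiers, each standing for 1 captured transcript). It counted as stromal if Ins1 and Ins2 made up under 20% of its UMIs, at least 3 of 7 genes (Col1a1, Col1a2, Col3a1, Dcn, Pdgfrb, Rgs5, Bgn) had a UMI and fewer than 3 of 6 endothelial genes did, with the cells led by the pseudogene Ftl1-ps1 left out. A stromal cell was a member if its Rgs5 UMIs exceeded the sum of Pdgfra, Dcn and Lum. Members were thus chosen by their measured UMIs of these genes, and those values are given as a description only. There were 111 members among 11314 cells, 81 in the S961 library, 16 in the recovered library and 14 in the control library. The other 75 stromal cells, 48, 18 and 9 in the same order, are called fibroblast-type below.

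The study profiled islets from C57Bl6/J males that were retired from breeding and 7 to 8 months old, with droplet-based 10x Genomics chemistry, in 3 libraries with 1 library for each group. The S961 group carried implanted pumps delivering S961, a peptide that blocks the insulin receptor, at a labelled 20 nM per week over 2 weeks. The recovered group received S961 and then had the pumps taken out, and the control group carried pumps without S961. How long recovery lasted and how many animals were pooled are not given in the sources used here. All islets spent a night in culture and were dispersed with TrypLE, so each comparison below is between cultured, dissociated cells of 1 library and another. Without replicate libraries no test across animals exists, no p-value is given, and treatment and library cannot be told apart.

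Pericytes are mural cells that sit on capillaries, signal to the endothelium through PDGF receptor beta and set capillary tone through contractile proteins and potassium channels. In the pancreas, stellate cells are related perivascular cells that hold retinoids in lipid droplets when quiescent and lay down matrix when activated. In islets both lie along the dense capillary bed, and the vascular ATP-sensitive potassium channel made of the Kcnj8 pore and the Abcc9 regulatory subunit is among the best-known pericyte markers.

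The channel genes are neighbours. In GENCODE M21 (GRCm38) Kcnj8 (ENSMUSG00000030247.9) occupies chr6:142564837-142571614 and Abcc9 (ENSMUSG00000030249.15) chr6:142587862-142702315, both on the minus strand and 16248 bases apart. Rgs5 (ENSMUSG00000026678.10) lies at chr1:169655501-169695813 on the plus strand. The bases just before each RefSeq start site are shown because Rgs5 chose the cells and the channel pair had the highest ratios of the pericyte markers between the S961 and control libraries. The windows are chr1:169655251-169655500 for Rgs5, chr6:142571615-142571864 for Kcnj8 and chr6:142702316-142702524 for Abcc9 (RefSeq, GRCm38.p6), read 5′ to 3′ on the gene's strand. Capitals mark matches, on either strand, to the CArG box, the RBPJ core TGGGAA, the GC box GGGCGG or the E-box CANNTG.
Rgs5: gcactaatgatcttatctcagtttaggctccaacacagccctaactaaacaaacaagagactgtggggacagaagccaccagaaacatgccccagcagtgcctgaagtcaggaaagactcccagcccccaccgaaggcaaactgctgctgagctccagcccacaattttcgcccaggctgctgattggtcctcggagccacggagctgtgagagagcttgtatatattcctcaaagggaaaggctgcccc
Kcnj8: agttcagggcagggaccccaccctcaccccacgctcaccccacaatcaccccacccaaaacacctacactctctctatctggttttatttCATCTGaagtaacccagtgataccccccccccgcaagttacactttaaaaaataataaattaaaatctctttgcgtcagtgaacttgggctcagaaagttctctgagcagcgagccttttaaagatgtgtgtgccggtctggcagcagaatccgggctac
Abcc9: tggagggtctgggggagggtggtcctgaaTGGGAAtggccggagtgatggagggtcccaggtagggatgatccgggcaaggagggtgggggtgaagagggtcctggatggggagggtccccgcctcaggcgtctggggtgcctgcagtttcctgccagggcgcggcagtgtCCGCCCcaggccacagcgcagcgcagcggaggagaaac
The Rgs5 window held no match, the Kcnj8 window held 1 E-box and the Abcc9 window held 1 RBPJ core and 1 GC box, with no overlap among them. Of 32851 windows of 250 bases before RefSeq starts, 1.47% held a CArG box, 21.6% an RBPJ core, 32.7% a GC box and 66.2% an E-box. The Abcc9 window was cut to 209 bases so that it lies before the GENCODE start as well.

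Rgs5-led cells made up 2.31% of the cells in the S961 library (exact 95% interval 1.84% to 2.86%), 0.452% in the recovered library (0.259% to 0.734%) and 0.328% in the control library (0.179% to 0.549%). Intervals here and below cover counting error only. As a share of stromal cells they made up 62.8% in the S961 library (53.8% to 71.1%), 47.1% in the recovered library (29.8% to 64.9%) and 60.9% in the control library (38.5% to 80.3%), and these intervals overlapped. The larger share of all cells in the S961 library went together with more stromal cells of both kinds, 129 in the S961 library, 34 in the recovered library and 23 in the control library. More such cells in the islets and more of them captured or kept by the filters cannot be told apart. Among cells with under 20% insulin UMIs, members made up 4.57%, 1.21% and 1.02% in the same order. The stromal threshold bears on the share, above all in the control library: a threshold of 2 of the 7 stromal genes gave 3.19%, 0.594% and 0.796%. Depth also differed, as the median member held 5473 UMIs in the S961 library, 4102.5 in the recovered library and 2308.5 in the control library. The part of depth in the share was not tested.

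**Figure D1:**
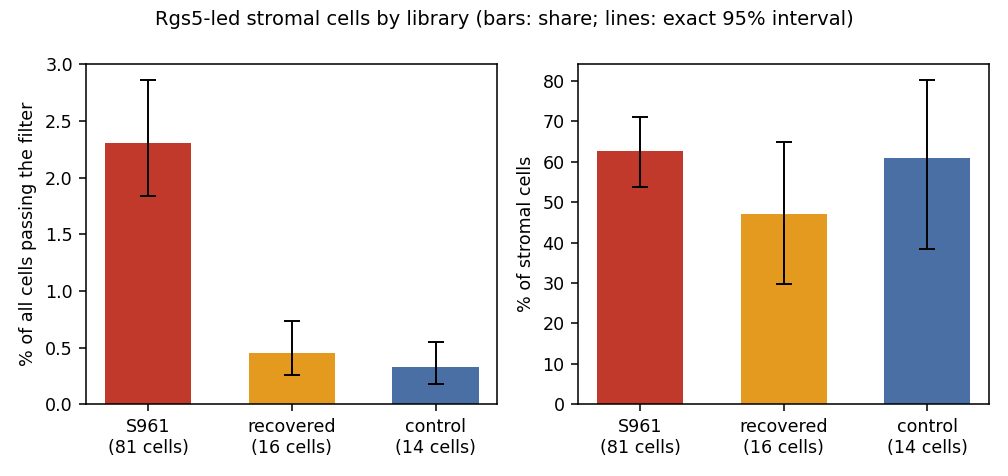
Share of Rgs5-led cells among all cells that passed the filter (left, percent) and among stromal cells (right, percent) in each library; bars are shares and lines exact 95% intervals. The S961 bar stands at 2.31% of cells against 0.452% in the recovered and 0.328% in the control library, while the 3 shares of stromal cells overlap.

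Selection used Rgs5, Pdgfra, Dcn, Lum and the 7 stromal genes, so their levels are a description. Members had a median of 12 Rgs5 UMIs in the S961 library, 7 in the recovered library and 4 in the control library. At the edge of the rule, 8, 1 and 1 members led by a single UMI, 9, 0 and 1 stromal cells tied and so were not members, and 2, 1 and 0 missed by 1 UMI. In 70, 13 and 12 members no UMI of Pdgfra, Dcn or Lum was found. No member was called a doublet by Scrublet, and no member shared its barcode sequence with another library. Scrublet called 2.20%, 0.622% and 0.0937% of the S961, recovered and control cells. The hormone-rich recovered member described below was not called either, so the lack of a call does not exclude doublets among members.

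Several members stood apart, and they matter because the recovered and control sums are small. In the control library 1 member held 19141 UMIs, 40.4% of all control member UMIs, with 7 UMIs each of the proliferation genes Mki67 and Top2a, 34 of Col1a1 and 26 of Fn1. In the recovered library 1 member carried 723 Pyy, 393 Sst and 202 Ppy UMIs, hormone transcripts of islet endocrine cells, and 2 members carried 18 and 14 Dcn UMIs with 109 and 80 of Col3a1. Members with at least 3 UMIs of Pdgfra, Dcn and Lum, at least 2% hormone UMIs other than insulin, or at least 2 of Mki67 and Top2a numbered 3, 3 and 1, and they held 3.15%, 35.7% and 40.4% of member UMIs. Gene lists and many single genes are therefore given with and without these 7 cells.

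Insulin RNA also differed between the libraries' members. The median member held 8 Ins1 and Ins2 UMIs in the S961 library (3 to 1000), 81.5 in the recovered library (53 to 99) and 124.5 in the control library (97 to 1196), or 0.175%, 1.97% and 5.69% of its UMIs. At least 1% insulin UMIs were found in 3 of 81, 14 of 16 and 14 of 14 members, and the part of this RNA in the comparisons was not tested. Defining endothelial genes Pecam1, Cdh5 and Kdr, which also limited the selection, all 8 lymphocyte genes and all 5 mesothelial genes were at 0 UMIs in members of the 3 libraries. Macrophage genes summed to 8.13 CPM (the gene's UMIs per 1e6 UMIs of the members), 104 CPM and 0 CPM, and acinar genes to 811, 428 and 84.4 CPM, in the S961, recovered and control members. Other endothelial genes were found: of 12 on the list 6, 4 and 3 had a UMI, in 56, 9 and 7 members. The list summed to 262, 273 and 232 CPM in members, against 69.8, 171 and 34.4 CPM in fibroblast-type cells. Ductal genes summed to 2684, 1389 and 3335 CPM with Krt19, Cftr and Muc1 at 0 UMIs, while 4, 4 and 3 of the 7 ductal genes had a UMI. Single members carried much of this: the median member stood at 0, 0 and 489 CPM and the highest at 51378, 9998 and 39339 CPM. For acinar genes the highest members stood at 13485.5, 1543 and 915 CPM. Delta cell genes summed to 81.3, 6142 and 169 CPM, of which 393 of 396 recovered Sst UMIs were in the hormone-rich cell.

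**Figure D2:**
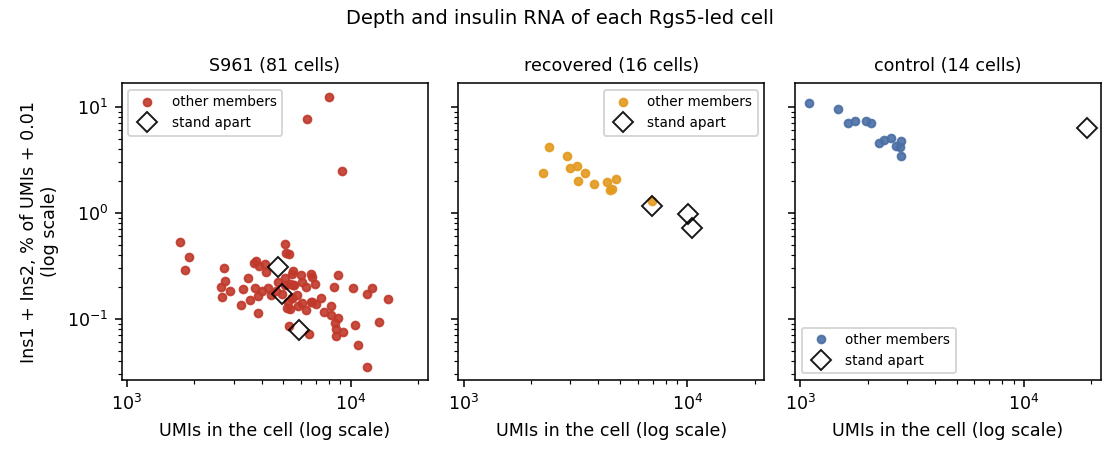
Each Rgs5-led cell by its UMIs (x axis, log scale) and the share of Ins1 and Ins2 in them (y axis, percent plus 0.01, log scale); diamonds are the 7 cells that stand apart. Medians of 0.175%, 1.97% and 5.69% separate the libraries, and 1 control cell lies far to the right at 19141 UMIs.

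The cells were then checked against pericyte markers that the selection did not use. Of 20 pericyte markers, Rgs5 and Pdgfrb of the selection among them, 20, 19 and 17 had a UMI among members, and the median member carried 9, 8 and 6 of them in the S961, recovered and control libraries. Higd1b, a mitochondrial protein of mural cells, stood at 128, 441 and 296 CPM in members of these libraries and at 0 UMIs in fibroblast-type cells of each. In the recovered library 1 cell held 14 of its 34 UMIs, and in the control library 1 cell held 11 of 14. Notch3, a receptor that marks mural cells, stood at 99.6, 156 and 127 CPM in members, against 22.8, 12.2 and 0 CPM in fibroblast-type cells. Its control value rests on 6 UMIs in 4 cells. Rgs4, a relative of Rgs5, stood at 461, 403 and 317 CPM in members, against 4.03, 61 and 103 CPM in fibroblast-type cells. These 3 were higher in members of each library. Of the 6 pericyte markers with at least 50 UMIs in recovered stromal cells, 1 was at least 2-fold higher in members and 1 lower. Most Rgs4 UMIs lay in other cells, however. Members held 3.304%, 0.966% and 0.356% of the Rgs4 UMIs of the S961, recovered and control cells. They made up 2.31%, 0.452% and 0.328% of those cells, so Rgs4 sets members apart from fibroblast-type cells only. Ndufa4l2, a hypoxia-inducible mitochondrial protein, was less selective, with 1113, 1078 and 1034 CPM in members, against 334, 927 and 447 CPM in fibroblast-type cells. Vtn, vitronectin, was lower in members of the S961 and recovered libraries, with 22.3, 117 and 84.4 CPM in members, against 71.1, 305 and 17.2 CPM in fibroblast-type cells. Pericyte markers outside the selection were thus present in each library, with the widest errors in the control library.

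**Figure D3:**
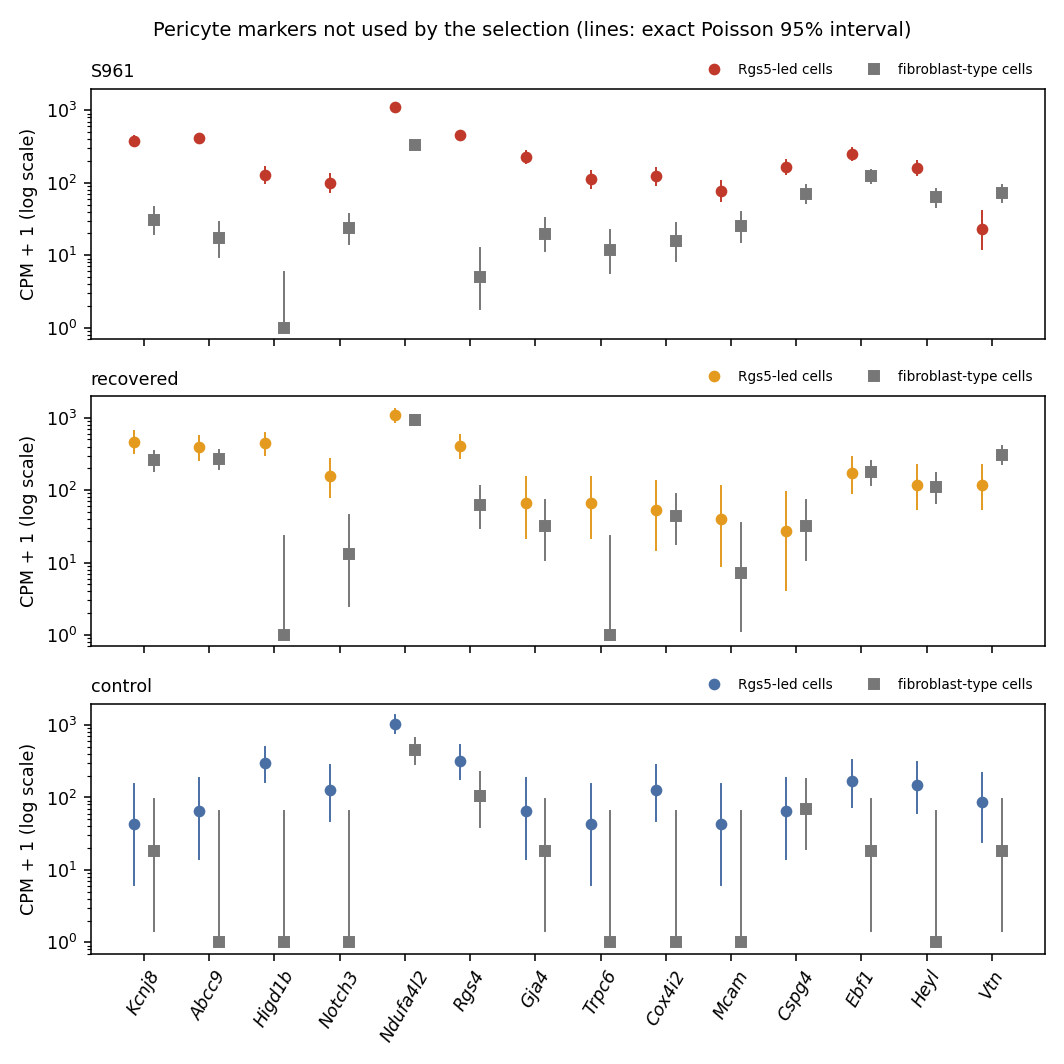
Levels of 14 pericyte markers that played no part in the selection (CPM plus 1, log scale) in Rgs5-led cells (circles) and fibroblast-type cells (squares) of each library; lines are exact Poisson 95% intervals. In the S961 library every circle but that of Vtn lies above its square, and the control intervals are wide.

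Smooth muscle markers were present in part. Of 17 such markers 12, 13 and 11 had a UMI among members of the S961, recovered and control libraries, with a median of 6, 5 and 3.5 of them per member. They summed to 5640, 4337 and 3567 CPM in members, against 4854, 3154 and 2200.0 CPM in fibroblast-type cells. Cnn1, Actg2, Ldb3 and Pln, genes of the smooth-muscle contractile programme, were at 0 UMIs in members of the 3 libraries. Acta2, smooth-muscle actin, stood at 358, 129.8 and 106 CPM in members, against 583, 299 and 68.7 CPM in fibroblast-type cells of the S961, recovered and control libraries. In the S961 library 5 cells held 60.8% of members' Acta2 UMIs, so the transcript was concentrated in a few cells. At least 2 of Acta2, Tagln and Myh11 were found in 24 of 81 S961 members, 5 of 16 recovered members and 2 of 14 control members, and none of them in 36, 7 and 9. Among S961 members a Kcnj8 or Abcc9 UMI was found in 16 of the 24 cells with at least 2 of these smooth-muscle genes and in 32 of the 36 with none. Kcnj8 stood at 243 CPM in the 24 cells and at 439 CPM in the 36 cells, whereas Tpm2, a tropomyosin, stood at 1056 CPM in the 24 cells and 274 CPM in the 36 cells. Smtn, smoothelin, an actin-binding protein of contractile cells, stood at 218 CPM in the 24 cells and 304 CPM in the 36 cells, and the split has no test.

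Stellate storage genes, those of quiescent stellate cells, summed to 4523, 4129 and 3652 CPM in members, against 1620.2, 3599 and 670.3 CPM in fibroblast-type cells of the S961, recovered and control libraries. Rarres2, whose levels are given at the end, made up most of the control sum. With at least 50 UMIs over both kinds of cell, 3 of 7 genes were 2-fold higher in S961 members and 1 lower. In the recovered library 2 of 6 were higher and 1 lower (median log2 ratio 0.11), and in the control library 1 of 1 was higher. Lrat, the enzyme that esterifies retinol for storage, had 0, 4 and 0 UMIs in the S961, recovered and control members. Des, desmin, an intermediate filament of stellate cells and pericytes alike, was found in 68 of 81, 13 of 16 and 10 of 14 members, at 605, 649 and 379.9 CPM. Cygb, cytoglobin, a stellate cell protein, stood at 469, 506 and 169 CPM. On these genes pericytes and stellate cells could not be separated within the set.

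Within each library, members were set against fibroblast-type cells, which share the library's handling. In the S961 library 4011 genes were measured, meaning at least 50 UMIs over both kinds of cell. Of these 10.3% were at least 2-fold higher in members and 8.48% at least 2-fold lower. In the recovered library 743 genes were measured, with 7.4% higher and 14.9% lower, and in the control library 247, with 9.72% higher and 10.5% lower. Since the selection split the cells on this contrast, the counts that follow only describe how the selected cells compare with the rest of the stromal cells and support nothing.

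Receptors and signals of vessels come first. In the S961 library, 15 of 16 measured pericyte markers were past 2-fold higher (median log2 ratio 2.59, against -0.01 over all measured genes), and 1 was lower. The 16 include Rgs5 and Pdgfrb of the selection. The recovered library did not show this, with 1 of 6 measured markers higher and 1 lower (0.57). In the control library 2 of 2 were higher (2.90). The list of ion channels and pumps holds Kcnj8 and Abcc9. In the S961 library 3 of its 3 measured genes were past 2-fold higher (3.69). In the recovered library 0 of 2 were past the fold (0.70), and in the control library 0 were measured. Of the vasoactive receptors and signals 5 of 7 were past 2-fold higher in the S961 library and 2 lower, Ptgs2 and Rgs10. Ednrb, an endothelin receptor, stood at 1227, 987 and 359 CPM in members, against 37.6, 12.2 and 0 CPM in fibroblast-type cells of the S961, recovered and control libraries. Its partner Ednra stood at 349, 259.7 and 148 CPM in members, against 47, 97.6 and 68.7 CPM in fibroblast-type cells. Both endothelin receptors were higher in members of each library. Pde3a, a cyclic nucleotide phosphodiesterase, stood at 219, 117 and 63.3 CPM in members, against 14.8, 24.4 and 17.2 CPM in fibroblast-type cells. The connexin Gjc1, which couples neighbouring cells, stood at 376, 325 and 296 CPM in members, against 76.5, 24.4 and 34.4 CPM in fibroblast-type cells.

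The 15 genes highest in members by their smallest ratio over the 3 libraries were Ptp4a3, Igfbp5, Fabp4, Pid1, Gm13889, Ednrb, Higd1b, Map3k20, Dlc1, Gjc1, Sema6d, Smtn, Mgp, Gcnt2 and Utrn. Igfbp5, a secreted binder of insulin-like growth factors, stood at 14316, 10816 and 5593 CPM in members, against 1629.6, 1007 and 481 CPM in fibroblast-type cells (log2 ratio in the S961 library 3.14, 3.05 to 3.22). Mgp, matrix Gla protein, which restrains calcification of vessels, stood at 24402, 28878 and 13298 CPM in members, against 2816, 6406 and 2406 CPM in fibroblast-type cells (3.12, 3.05 to 3.18). Ptp4a3, a phosphatase, stood at 2591, 2701 and 1499 CPM in members, against 188, 116 and 120.3 CPM in fibroblast-type cells (3.79, 3.53 to 4.05). All 3 were higher in members of each library. Dlc1, a regulator of the actin skeleton, stood at 408, 454 and 379.9 CPM in members, against 75.2, 91.5 and 51.6 CPM in fibroblast-type cells. Smtn stood at 262, 169 and 169 CPM in members, against 55, 36.6 and 34.4 CPM in fibroblast-type cells.

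Other genes were lower in members. Among the 10 lowest were Aldh1a3, Timp1, Serpinf1, Tnc, Mfap5, Prss23, Inhba, Ltbp2 and Ctsk. Timp1, an inhibitor of metalloproteinases, stood at 236, 77.9 and 296 CPM in members, against 3894, 3856 and 13612 CPM in fibroblast-type cells. Tnc, tenascin C, a matrix glycoprotein of remodelling tissue, stood at 56.9, 26 and 148 CPM in members, against 995, 244 and 1169 CPM in fibroblast-type cells. Inhba, the activin subunit, stood at 122, 0 and 127 CPM in members, against 1897, 415 and 722 CPM in fibroblast-type cells. In the S961 library 14 of 24 measured interstitial matrix genes were past 2-fold lower in members and 1 was higher (median log2 ratio -1.38). Of the cell division genes 14 of 17 were lower and 0 higher (-2.34), while in the recovered library 2 of 2 measured were lower and in the control library the 1 measured was not past the fold, and in the S961 library of the chemokine and cytokine genes 9 of 15 were lower and 3 higher (-1.78). Immediate early genes, which respond to dissociation among other stimuli, were past 2-fold higher in the S961 library for 11 of 18, with 2 lower. They were higher for 2 of 9 in the recovered library (median log2 ratio 0.05) and for 2 of 2 in the control library.

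The S961 library was next set against the control library. Of 1912 genes with at least 50 UMIs over the members of both, 29% were at least 1.5-fold higher in the S961 library and 12.2% at least 1.5-fold lower, and the median log2 ratio was 0.13. Without the cells that stand apart 28.3% of 1789 measured genes were higher and 13.9% lower. The list counts below are to be read beside these shares. With only the cells under 5% insulin UMIs, 79 in the S961 library and 6 in the control library, higher genes made up 55.7% of those past the fold, against 70.4% over all members. The ratios rest on 492180 UMIs in S961 members and 47377 in control members.

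The ATP-sensitive potassium channel was the pericyte feature with the highest ratios. Kcnj8 stood at 379.9 CPM in S961 members, found in 40 of 81, and at 42.2 CPM in control members, found in 2 of 14 (log2 ratio 3.17, 1.30 to 6.23). Abcc9 stood at 417 CPM in S961 members, found in 51 of 81, and at 63.3 CPM in control members, found in 2 of 14 (2.72, 1.15 to 5.01). Both subunits were found together in 30 of 81 S961 members and in 0 of 14 control members, which allows up to 21.4% of cells with a UMI of both; this limits detection at the lower depth of control members, not the share of cells with the channel. Without the cells that stand apart the log2 ratios were 2.41 for Kcnj8 and 1.98 for Abcc9. After each cell was thinned to 1500 UMIs, Kcnj8 was found in 32.1% (22.2% to 43.4%) of 81 S961 members and in 16.7% (2.09% to 48.4%) of 12 control members. Thinned Abcc9 was found in 37% (26.6% to 48.5%) of S961 members and in 8.33% (0.211% to 38.5%) of control members. The intervals of both genes overlapped, so the difference in thinned shares was not resolved at this depth. In beta-rich cells, which have at least 20% insulin UMIs and should lack the channel made of these subunits, Kcnj8 was found in 0.75% of S961 and 0.276% of control cells, or 0.233% and 0.0699% when thinned. For Abcc9 these shares were 0.808% and 0.276%, or 0.0582% and 0.0349% when thinned. The median beta-rich cell held 13931 UMIs in the S961 library and 7694.5 in the control library.

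Other pericyte markers lay closer together. Over the 14 measured markers 5 were past 1.5-fold higher in S961 members and 1 lower (median log2 ratio 0.55), and without the cells that stand apart 6 were higher and 3 lower (-0.03). Pdgfrb, the receptor used in the selection, stood at 748 CPM in S961 members and 675 CPM in control members (0.15, -0.38 to 0.72). Higd1b was the marker past the fold in the other direction, at 128 CPM in S961 members and 296 CPM in control members (-1.21, -2.06 to -0.26), and 1 control cell held 11 of its 14 UMIs. Gja4, a connexin of mural cells, stood at 226 CPM in S961 members and 63.3 CPM in control members, from 111 and 3 UMIs (1.83, 0.25 to 4.13).

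Basement membrane genes were higher in S961 members for 8 of 9 measured and lower for 0 (median log2 ratio 1.10), and without the cells that stand apart for 9 of 9 (1.33). Col4a1, which with Col4a2 forms the collagen network under the capillary wall, stood at 1603 CPM in S961 members and 654 CPM in control members (1.29, 0.78 to 1.86). Col4a2 stood at 723 CPM in S961 members and 338 CPM in control members (1.10, 0.38 to 1.92). Col18a1, a collagen that carries heparan sulfate, stood at 559 CPM in S961 members and 211 CPM in control members (1.40, 0.50 to 2.48). The intervals of these 3 collagens lay above 0, but they cover counting error only and not the spread between cells or animals. Without the cells that stand apart the log2 ratios of the 3 were 1.28, 1.06 and 0.98. Sparc, a collagen-binding glycoprotein, stood at 4474 CPM in S961 members and 2153 CPM in control members (1.06, 0.77 to 1.36). Its relative Sparcl1 stood at 892 CPM in S961 members and 127 CPM in control members (2.82, 1.68 to 4.27), or 2.08 without the cells that stand apart. Sparcl1 was found in 66 of 81 S961 members and 4 of 14 control members. When thinned it was found in 54.3% (42.9% to 65.4%) of S961 members and 8.33% (0.211% to 38.5%) of control members, against 0.291% and 0.0699% of beta-rich cells, and the members' intervals did not overlap.

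Interstitial matrix genes differed with and without the dividing, collagen-rich control cell. Their list holds Col1a1, Col1a2, Col3a1 and Bgn, which the selection used, and the rule for cells that stand apart used Pdgfra, Dcn and Lum. The counts of this list are therefore a description only. Over all members 3 of 14 measured genes were past 1.5-fold higher in S961 members and 3 lower (median -0.14), and without the cells that stand apart 11 were higher and 0 lower (0.96). Col3a1, a fibrillar collagen, had a log2 ratio of -0.54 over all members and 1.65 without those cells, and 39 of its 45 control UMIs were in that cell. Fn1, fibronectin, had -2.19 over all members and at least 0.17 without those cells, since all 26 control UMIs of Fn1 were in that cell.

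Binders of insulin-like growth factors were higher in S961 members. Igfbp5 stood at 14316 CPM in S961 members and 5593 CPM in control members (1.36, 1.18 to 1.54). Igfbp7 stood at 8407 CPM in S961 members and 3609 CPM in control members (1.22, 1.00 to 1.45). Without the cells that stand apart the log2 ratios were 0.63 for Igfbp5 and 0.81 for Igfbp7, and with only the cells under 5% insulin UMIs they were 0.16 and 0.75. Of 18 genes of insulin-like growth factor and insulin signalling 3 were measured, these binders and Pik3r1, a regulatory subunit of PI3 kinase, and 3 were past 1.5-fold higher. Insr, the receptor that S961 blocks, had 18, 2 and 2 UMIs in the S961, recovered and control members, too few for a comparison.

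Contractile genes were higher in S961 members for 16 of 24 measured and lower for 0 (median 0.65), and without the cells that stand apart for 11 of 23 with 1 lower (0.54). Csrp1, a LIM protein of smooth muscle, stood at 849 CPM in S961 members and 232 CPM in control members (1.87, 1.02 to 2.88), or 1.29 without the cells that stand apart. Tpm1, tropomyosin, stood at 506 CPM in S961 members and 232 CPM in control members (1.12, 0.26 to 2.14), or 0.54 without those cells, which is below 1.5-fold. Among the 5 measured vasoactive genes 3 were higher and 0 lower, and without those cells 3 and 1. Ednrb stood at 1227 CPM in S961 members and 359 CPM in control members (1.77, 1.08 to 2.56), and without the cells that stand apart its log2 ratio was 1.04.

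Angiogenic genes were higher in S961 members for 6 of 7 measured and lower for 0, and without the cells that stand apart for 2 of 7. Of all genes measured without those cells, 28.3% were higher. Stellate storage genes were higher for 5 of 6 and lower for 1, and without those cells for 3 and 1. Id3, a target of BMP and TGF-beta signalling, stood at 2286 CPM in S961 members and 1139.8 CPM in control members (1.00, 0.61 to 1.43). Vegfa, the angiogenic ligand, stood at 691 CPM in S961 members and 253 CPM in control members (1.45, 0.62 to 2.41). Plin2, the coat protein of lipid droplets, stood at 1016 CPM in S961 members and 359 CPM in control members (1.5, 0.81 to 2.29). Without the cells that stand apart the log2 ratios of the 3 genes were lower, at 0.81, 0.73 and 0.81.

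The 8 highest genes by the naming rule included Kcnj8 and Sparcl1, and the other 6 follow. Areg, amphiregulin, a ligand of the EGF receptor, stood at 1327 CPM in S961 members, found in 32 of 81, and at 84.4 CPM in control members, where 1 of 14 held all 4 UMIs (3.97, 2.61 to 5.85). Its log2 ratio was 3.06 without the cells that stand apart and 2.42 with only the cells under 5% insulin UMIs. Btc, betacellulin, another such ligand, stood at 284 CPM in S961 members, found in 27, and at 0 UMIs in control members, which is at least 4.49-fold higher with the control sum set at 3 UMIs (log2 2.17). This bound was 1.44 without the cells that stand apart and 0.60 with only the cells under 5% insulin UMIs. Tfpi2, a secreted protease inhibitor, stood at 1235 CPM in S961 members, found in 60, and at 84.4 CPM in control members, found in 3 (3.87, 2.51 to 5.75), or 4.15 without the cells that stand apart. Thinned Tfpi2 was found in 50.6% (39.3% to 61.9%) of S961 members and 8.33% (0.211% to 38.5%) of control members, against 0.175% and 0.0699% of beta-rich cells, and thinned Areg in 35.8% (25.4% to 47.2%) and 8.33% (0.211% to 38.5%), against 0.582% and 0.699%. The members' intervals did not overlap for Tfpi2 and did for Areg. Aspn, asporin, a matrix proteoglycan, stood at 299 CPM in S961 members and 21.1 CPM in control members, from 147 UMIs and 1 UMI (3.82, 1.32 to 9.14), and at least 1.51 without the cells that stand apart. The chemokine Ccl11 stood at 268 CPM in S961 members and at 0 UMIs in control members, at least 4.24-fold higher (log2 2.08), with a bound of 1.22 without those cells and 0.53 under 5% insulin UMIs. The chemokine Ccl2 stood at 612 CPM in S961 members and 106 CPM in control members (2.53, 1.30 to 4.17), or 1.83 without those cells, and 230 of its 301 S961 UMIs were in 1 cell.

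**Figure D4:**
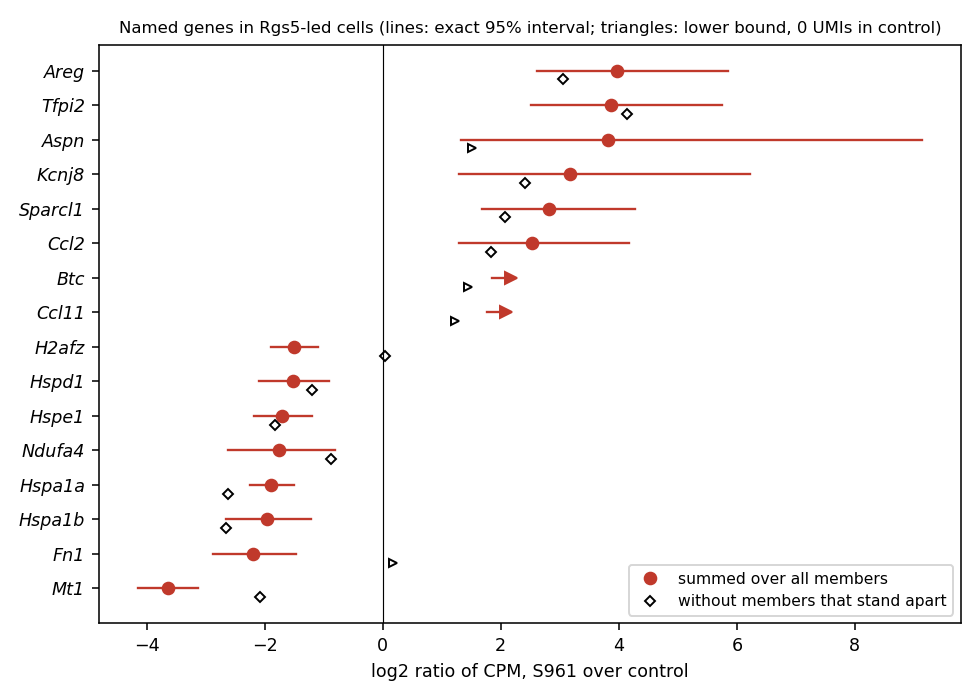
Log2 ratio of CPM, S961 over control, for the 16 genes named by rule; filled symbols use all members with exact 95% intervals, open symbols leave out the cells that stand apart, and triangles are lower bounds because control held 0 UMIs. Areg and Tfpi2 lie highest at 3.97 and 3.87, and H2afz moves to 0.04 without those cells.

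Stress genes had the lowest ratios, and most rested on single control cells. Hspa1a, an inducible chaperone, stood at 479 CPM in S961 members and 1773 CPM in control members, where 1 cell held 77 of 84 UMIs. Its copy Hspa1b, which shares much of its sequence so that reads may be split between them, had all 24 control UMIs in 1 cell. Without the top cell of the gene in each library the log2 ratio of Hspa1a was 0.96, against -1.89 over all members, and that of Hspa1b was at least 0.52, against -1.96. H2afz, a histone variant, had 55 of 68 control UMIs in the dividing cell, and its log2 ratio of -1.5 over all members became 0.04 without the cells that stand apart. Hspd1 and Hspe1, which form the mitochondrial chaperonin, had log2 ratios of -1.52 and -1.70, or -1.26 and -0.92 without their top cells. Ndufa4, a subunit of cytochrome oxidase, had -1.76, -2.63 to -0.81, from 46 UMIs in S961 members and 15 in control members. Mt1, a metallothionein, stood at 124 CPM in S961 members and 1541 CPM in control members (-3.64, -4.15 to -3.13), with 58 of 73 control UMIs in the dividing cell. Thinned Mt1 was found in 11.1% of S961 members and 50% of control members, below the 38.4% and 64.8% of beta-rich cells, so no difference is read from its share. The part of free RNA in it was not tested.

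Glycolysis and hypoxia genes were lower in S961 members for 6 of 22 measured and higher for 3 (median -0.22), and without the cells that stand apart for 10 of 21 with 1 higher (-0.50). The glycolytic enzyme Pgk1 stood at 591 CPM in S961 members and 1203 CPM in control members (-1.02, -1.44 to -0.59). Pgam1, the next enzyme of the pathway, stood at 648 CPM in S961 members and 1034 CPM in control members (-0.67, -1.11 to -0.21).

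The recovered library was set against the S961 library. Of 2031 measured genes 8.76% were at least 1.5-fold higher in recovered members and 23.9% at least 1.5-fold lower, with a median log2 ratio of -0.13. Without the cells that stand apart 11.8% of 1879 measured genes were higher and 22.4% lower. For the channel genes the intervals included 0: Kcnj8 stood at 467 CPM in recovered members and 379.9 CPM in S961 members (0.30, -0.26 to 0.82), and Abcc9 at 389.5 CPM in recovered members and 417 CPM in S961 members (-0.10, -0.70 to 0.46). So did that of Col4a1, at 1584 CPM in recovered members and 1603 CPM in S961 members (-0.02, -0.30 to 0.26). The lists of these genes leaned lower, however. Of 9 measured basement membrane genes 0 were past 1.5-fold higher in recovered members and 4 lower (median log2 ratio -0.20). Of 14 measured pericyte markers 2 were higher and 5 lower (-0.33).

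Stellate activation genes were past 1.5-fold lower in recovered members for 10 of 17 measured and higher for 2 (median -0.61), and without the cells that stand apart for 6 of 16 with 2 higher (-0.46). Sparc stood at 2869.6 CPM in recovered members and 4474 CPM in S961 members (-0.64, -0.85 to -0.44). Acta2 stood at 129.8 CPM in recovered members and 358 CPM in S961 members (-1.46, -2.55 to -0.55). The larger count was thus on the lower side in both settings, and Postn was among the higher genes. Angiogenic genes were lower for 5 of 7 and higher for 0, and without the cells that stand apart for 4 and 0, while Vegfa itself had a log2 ratio of -0.09.

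Fabp4, a fatty acid carrier also abundant in endothelium, had one of the lowest ratios. It stood at 104 CPM in recovered members, found in 3 of 16, and at 746 CPM in S961 members, found in 47 of 81 (-2.84, -4.07 to -1.85), where 1 cell held 148 of 367 UMIs. The log2 ratio was -3.47 without the top cell of each library and -2.39 without the cells that stand apart. Thinned Fabp4 was found in 0 of 16 recovered members, which allows a share of up to 18.8%, and in 32.1% (22.2% to 43.4%) of S961 members, against 0.0912% and 0.873% of beta-rich cells. Members held 0.249% of the Fabp4 UMIs of recovered cells and 2.92% of those of S961 cells, so most Fabp4 lay in other cells. Dmp1, a mineral-binding matrix protein, Col15a1, a collagen of the vascular basement membrane, and Inhba had 0 UMIs in recovered members and 187, 126 and 122 CPM in S961 members. With the recovered sum set at 3 UMIs their log2 ratios were at most -2.26, -1.69 and -1.65, or -1.62, -1.05 and -1.01 without the cells that stand apart. Hmox1, heme oxygenase, stood at 104 CPM in recovered members and 593 CPM in S961 members (-2.51, -3.74 to -1.52), with 205 of 292 S961 UMIs in 1 cell. With at most 10% mitochondrial UMIs its direction turned, to a log2 ratio of 0.39.

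Most genes named as higher in recovered members had much lower ratios without the cells that stand apart. Apoe, an apolipoprotein, stood at 2129 CPM in recovered members, where 3 cells held all 164 UMIs, and at 26.4 CPM in S961 members (6.33, 5.52 to 7.27). Without the cells that stand apart its log2 ratio was 0.81. Plac8 stood at 338 CPM in recovered members and 69.1 CPM in S961 members, with a log2 ratio of 2.29 over all members and at most -0.24 without those cells, when recovered members held 0 UMIs. Postn, periostin, a matrix protein, had 2.00 over all members and 1.18 without those cells. Tmem176a, a membrane protein, had 2.10 and 1.19, and G0s2, an inhibitor of triglyceride lipase, 2.73 and 0.65. Of these 5 genes Apoe, Plac8 and G0s2 lost most of their ratio. Genes of the unfolded protein response differed in the same way, with 7 of 20 higher and 1 lower over all members, and 1 higher and 4 lower without them.

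Recovered members could be set against control members over 336 genes, of which 17.6% were at least 1.5-fold higher and 13.7% at least 1.5-fold lower. Without the cells that stand apart 18.2% of 187 measured genes were higher and 13.9% lower. Each library in this comparison also serves in another above, so the comparisons are not independent. Areg stood at 896 CPM in recovered members and 84.4 CPM in control members (3.41, 1.99 to 5.32), or 3.3 without the cells that stand apart. Tfpi2 stood at 766 CPM in recovered members and 84.4 CPM in control members (3.18, 1.75 to 5.10), or 3.00 without those cells. Mgp stood at 28878 CPM in recovered members and 13298 CPM in control members (1.12, 0.99 to 1.25), or 1.2 without those cells, but 0.24 with only the cells under 5% insulin UMIs. Areg and Tfpi2 rest on 4 control UMIs each. Ccl11 stood at 792 CPM in recovered members, with 45 of 61 UMIs in 1 cell, and at 0 UMIs in control members, at least 12.5-fold higher (log2 3.64), with a bound of 1.31 without the cells that stand apart and 1.86 without its top cell. Apoe, the other of the 5 highest genes, stood at 2129 CPM in recovered members and 296 CPM in control members (2.85, 2.06 to 3.75), where 1 cell held all 14 UMIs, and it was not measured without the cells that stand apart. The 5 lowest were Hspa1a, Mt1, Hspe1, Hspb1 and H2afz, and of Hspb1, a small heat shock protein, 34 of 40 control UMIs were in 1 cell. Without the top cells the log2 ratios were -0.42 for Hspa1a, -1.63 for Mt1 and -1.31 for Hspe1, and they turned to 0.45 for Hspb1 and 0.18 for H2afz. Basement membrane genes were higher in recovered members for 4 of 5 measured and lower for 0, and without the cells that stand apart for 3 of 4.

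**Figure D5:**
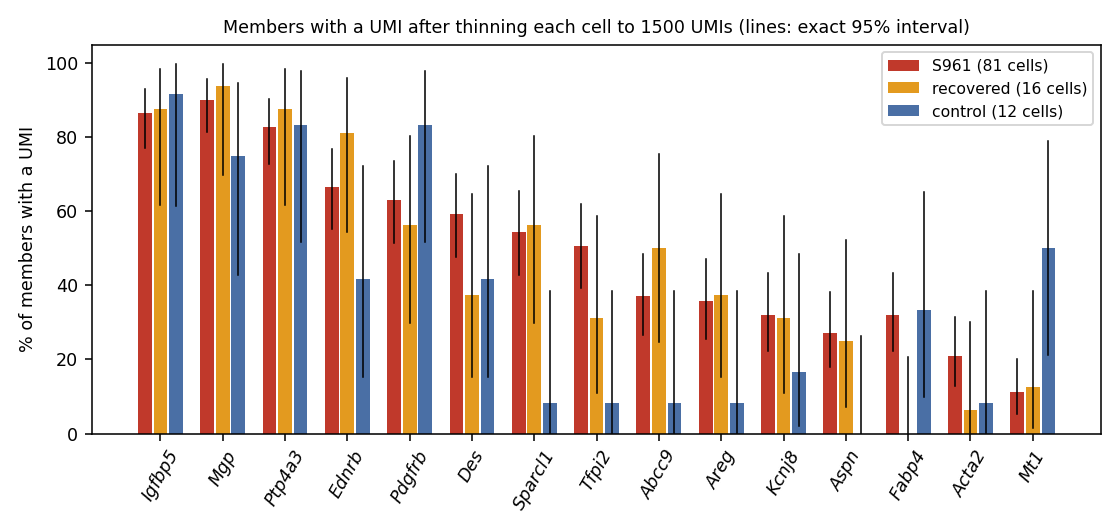
Share of Rgs5-led cells with a UMI of each gene after thinning to 1500 UMIs per cell (y axis, percent) in the S961 (81 cells), recovered (16 cells) and control (12 cells) libraries; lines are exact 95% intervals. Sparcl1 stands at 54.3%, 56.2% and 8.33%, and Fabp4 at 32.1%, 0% and 33.3%.

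Members held a large part of several mural transcripts of the whole S961 library, though not of Rgs4, whose shares are given above. They were 2.31% of its cells and held 55.9% of its Abcc9 UMIs, 53.3% of its Notch3 UMIs and 24.6% of its Kcnj8 UMIs. They also held 61.1% of its Rgs5 UMIs, but Rgs5 chose the members, so its shares are a description only. In the recovered library members were 0.452% of cells. They held 43.4% of the Rgs5, 30.6% of the Abcc9, 52.2% of the Notch3 and 14.1% of the Kcnj8 UMIs. In the control library members were 0.328% of cells. They held 26.5% of the Rgs5, 6.67% of the Abcc9, 46.2% of the Notch3 and 0.966% of the Kcnj8 UMIs. Fewer members hold a smaller share of any transcript, so these shares do not compare levels between libraries. Most Kcnj8 UMIs were thus outside the Rgs5-led cells in each library, while in the S961 library most Abcc9 UMIs were inside them.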

How the data were processed

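Islet cells were profiled in 3 droplet libraries, 1 for each group. The authors deposited UMI counts per gene and barcode (31053 genes, 24590 barcodes), made with Cell Ranger on mm10, per the submitters' processing notes; the version is not given in the sources used here. Members' counts were summed by library and divided by their total to give CPM. Intervals of ratios are exact binomial, those of shares Clopper-Pearson and those of levels Poisson, at 95%, covering counting error only. A gene was measured with at least 50 UMIs over both sides, and a sum of 0 was set to 3 UMIs in ratios. Where 0 cells had a UMI, the limit given in the text is 3 over the number of cells, not the Clopper-Pearson bound. Cells were thinned to 1500 UMIs without replacement, which left out 2 control members. Scrublet (scanpy 1.11.5) called 77, 22 and 4 of the S961, recovered and control cells and no member. With 1 library per group there was no test. The named genes were the 8 highest and 8 lowest of S961 over control and the 5 and 5 of each other comparison, by the interval bound nearest 0. They needed at least 100 CPM, excluding mitochondrial, ribosomal and unnamed genes, markers of other cells and genes whose level in members was under 50% of that over all barcodes. Members against fibroblast-type cells were ranked by their least extreme library (15 and 10). Pathway genes came from 25 lists. A few genes that the rule names are not reported here. The members and lists were chosen with earlier results of these data known, and the rule for cells that stand apart was chosen after seeing the cells. The ratio code was tested on simulated data. Python 3.11.15, numpy 2.4.6, scipy 1.17.1 and matplotlib 3.10.9 were used, and gene positions came from GENCODE M21 (30464 of 31053 symbols matched).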

Additional observations from a re-analysis of the deposited data

How the results depend on the processing

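No paired analysis was possible because each group has 1 library. The number of genes past 1.5-fold was 788 for S961 over control, 664 for recovered over S961 and 105 for recovered over control; it was 2090, 1928 and 389 with a minimum of 20 UMIs, 278, 229 and 37 with 100, 348, 265 and 43 past 2-fold, and 132, 90 and 31 on thinned cells, and recovered over control gave 60 without the cells that stand apart. Higher genes made up 70.4% of those past the fold for S961 over control, against 81.3% past 2-fold and 55.7% with cells under 5% insulin UMIs, where the median of all genes was -0.07 in place of 0.13. For recovered over control the share was 56.2%, against 72.1% past 2-fold and 45.2% on thinned cells. Members against fibroblast-type cells gave 753, 166 and 50 genes past 2-fold in the S961, recovered and control libraries, 1579, 356 and 89 past 1.5-fold, and 1615, 498 and 175 with a minimum of 20 UMIs. The share of members was 0.141% in the control library with cells under 5% insulin UMIs, 4.57%, 1.21% and 1.02% of insulin-poor cells, and 3.19% in the S961 and 0.796% in the control library with 2 of 7 stromal genes. Some ratios reversed. With at most 10% mitochondrial UMIs, Hmox1 reached 0.39 (recovered over S961). With cells under 5% insulin UMIs, H2afz reached 0.21 and Hspa1a 1.35 (S961 over control), and H2afz 0.33 and Hspb1 1.79 (recovered over control). On thinned cells Fn1 reached 0.95, Hspa1a 2.78 and Hspa1b 0.95 (S961 over control), and Hspb1 0.32 (recovered over control). Without the deepest members Fn1 reached 0.0078 and H2afz 0.14 (S961 over control), and H2afz 0.31 (recovered over control). Without the cells that stand apart Fn1 reached 0.17 and H2afz 0.042 (S961 over control), Plac8 -0.24 (recovered over S961) and H2afz 0.30 (recovered over control). Without the gene's top cell H2afz reached 0.029, Hspa1a 0.96 and Hspa1b 0.52 (S961 over control), and H2afz 0.18 and Hspb1 0.45 (recovered over control). The reversed values of Hspa1b, of Fn1 other than on thinned cells, of Hspa1a under 5% insulin UMIs and of Hspb1 on thinned cells are lower bounds, as the control then held 0 UMIs, and that of Plac8 is an upper bound, as recovered members held 0. Beyond the weight of 1 control cell in sums without it, the cause was not tested. The leaving out of cells that stand apart or of the top cell, the filter without a mitochondrial limit and that without an insulin limit (2.11%, 0.293% and 0.270%, and 2.40%, 0.452% and 0.328% of cells) were chosen after seeing the data. The 14 control members limit every comparison with that library.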

Other observations

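The other gene lists add to the picture of S961 members against control members. Of 7 measured smooth muscle markers 6 were past 1.5-fold higher and 0 lower, with Acta2 at a log2 ratio of 1.76 and Tagln at -0.03, and without the cells that stand apart 2 were higher and 1 lower. Protease and inhibitor genes of the matrix were higher for 6 of 12 and lower for 1, and without those cells for 7 and 0, led by Adamts1, a metalloproteinase, at 1.51. Ctgf and Cyr61, matricellular proteins of stellate activation, stood at 510.0 and 124 CPM in S961 members and at 84.4 and 21.1 CPM in control members, where all 4 Ctgf UMIs were in 1 cell. Among stellate storage genes Rarres2, chemerin, was the lower one, at 1504 CPM in S961 members and 2364 CPM in control members.

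Stress and signalling lists were less clear. Of all measured genes 29% were higher and 12.2% lower, or 28.3% and 13.9% without the cells that stand apart. With only the cells under 5% insulin UMIs these shares were 26.9% and 21.4%. The counts of the immediate early and Notch genes over all members are not read as a difference from these shares. Heat shock genes were lower for 5 of 11 and higher for 1 over all members, but with only the cells under 5% insulin UMIs 3 were higher and 1 lower. Immediate early genes were higher for 4 of 12 and lower for 1, and without the cells that stand apart for 1 and 3, with Fos at 293 CPM in S961 members and 485 CPM in control members. Of 3 measured class I antigen presentation genes 0 were higher and 0 lower, and of 4 Notch pathway genes 1 was higher, Hes1 at a log2 ratio of 0.71.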
